A study of Mus musculus with 6 samples.

Results

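The genes described here are the IRE1-XBP1 branch of the unfolded protein response and the machinery that carries new proteins into and out of the endoplasmic reticulum (ER): 38 named genes of the 46603 listed per library. They were listed by symbol, by their known roles, with earlier results of these data known, and symbols were matched to Ensembl identifiers through the GENCODE M21 annotation of GRCm38. All 38 had an identifier and all 38 passed the filter on low counts. They were measured in mouse bone marrow-derived macrophages (BMDM) by stranded poly(A) RNA sequencing, in 3 libraries of cells given cancer cell-conditioned medium with its lipids and 3 libraries given the same kind of medium without lipids. The mice were C57BL/6/J, 7 weeks old, and both groups shared every other step in the labels: culture with 20% L929-conditioned medium as a source of macrophage growth factor, detachment on day 6, seeding of 800000 cells per well, and addition of the medium 6 h later. Which cancer cells were used, how the lipids were taken out and how long the macrophages were exposed is not given in the sources used here. This series set out to find which transcripts depend on the lipids of the medium, and no group without cancer cell medium was analysed here.

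IRE1 is a kinase and ribonuclease of the ER membrane. When unfolded proteins or abnormal membrane lipids accumulate in the ER, it cuts a short piece out of the Xbp1 mRNA, and the spliced form encodes an active transcription factor. The known targets of that factor include genes for protein entry into the ER (signal recognition particle, SEC61 channel, TRAP complex, signal peptidase), for N-glycosylation, for folding and degradation, and for vesicle transport to the Golgi. In macrophages this branch is known to act downstream of Toll-like receptors as well as of ER stress.

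The piece that IRE1 removes is shown because the counts per gene cannot show it: they sum spliced and unspliced Xbp1 mRNA. In GRCm38 it lies in exon 4 of Xbp1 at chr11:5524279-5524304, on the + strand, within the coding sequence. It is in capitals in the stretch chr11:5524267-5524316, with 12 bases of the same exon on either side:
Xbp1: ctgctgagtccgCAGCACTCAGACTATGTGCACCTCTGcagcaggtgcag
The removed piece is 26 bases long and so not a multiple of 3, which shifts the reading frame of everything after it. A change in the ratio of the 2 mRNA forms at a constant sum would leave the Xbp1 value in every library as it is.

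Promoters were read from RefSeq (GRCm38.p6), as the 250 bases before and 50 bases after an annotated start. They were found for 30 of the 38 genes, in 31 windows. The ER stress response element (CCAAT, any 9 bases, CCACG) and its second form (ATTGG, any 1 base, CCACG), searched on both strands, were in 0 of the 31 windows, and in 0.119% and 0.0365% of all 32851 promoters in the table. The core of the unfolded protein response element, TGACGTGG, was in 2 of 31 windows (6.45%), those of Sec24d and Kdelr3. It was in 0.676% of all promoters and 0.831% of the promoters of tested genes. The 5-base sequence CCACG, which is also the end of the stress response element and lies within the reverse complement of TGACGTGG, was in 20 of 31 windows (64.5%), against 32.8% of all promoters and 46.5% of the 12271 promoters of tested genes. Shown here, in capitals, are the copies of CCACG in the promoters of Dnajb9 (chr12:44210019-44210318, - strand) and Serp1 (chr3:58525835-58526134, - strand), both well known XBP1 targets, and the TGACGTGG matches of Sec24d (chr3:123267246-123267545, + strand) and Kdelr3 (chr15:79516158-79516457, + strand, where it reads as its reverse complement CCACGTCA), each printed 5' to 3' on the strand of the gene:
Dnajb9: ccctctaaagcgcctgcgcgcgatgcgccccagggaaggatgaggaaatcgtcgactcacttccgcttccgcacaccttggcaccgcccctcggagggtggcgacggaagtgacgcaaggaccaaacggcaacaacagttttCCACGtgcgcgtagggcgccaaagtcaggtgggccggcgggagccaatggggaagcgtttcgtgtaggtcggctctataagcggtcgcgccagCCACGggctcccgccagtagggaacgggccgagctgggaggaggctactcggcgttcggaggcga
Serp1: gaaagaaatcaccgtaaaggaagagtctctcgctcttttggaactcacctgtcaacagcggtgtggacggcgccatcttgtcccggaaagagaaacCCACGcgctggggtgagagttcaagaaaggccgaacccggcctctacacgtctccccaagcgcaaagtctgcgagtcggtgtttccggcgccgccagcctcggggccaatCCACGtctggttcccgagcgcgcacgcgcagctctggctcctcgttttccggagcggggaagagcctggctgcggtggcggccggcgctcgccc
Sec24d: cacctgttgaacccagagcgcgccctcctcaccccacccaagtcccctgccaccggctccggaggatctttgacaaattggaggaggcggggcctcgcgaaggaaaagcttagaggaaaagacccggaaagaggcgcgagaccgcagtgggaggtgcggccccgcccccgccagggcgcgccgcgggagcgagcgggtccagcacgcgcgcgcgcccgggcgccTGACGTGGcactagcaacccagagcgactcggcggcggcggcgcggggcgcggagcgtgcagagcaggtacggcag
Kdelr3: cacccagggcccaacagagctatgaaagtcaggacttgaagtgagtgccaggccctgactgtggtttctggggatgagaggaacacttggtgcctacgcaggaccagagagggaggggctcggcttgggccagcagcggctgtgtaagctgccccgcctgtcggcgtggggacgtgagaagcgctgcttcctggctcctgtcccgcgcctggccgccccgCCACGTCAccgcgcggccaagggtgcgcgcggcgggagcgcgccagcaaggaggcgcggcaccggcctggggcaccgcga
A match describes the letters of these windows and does not mark a bound site. No promoter was found in the table for Srp19, Srp68, Sec61a1, Ssr2, Spcs3, Sec11c, Ostc or Kdelr2.

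Libraries held 20778651 to 25323053 counts with lipids and 19429022 to 22330119 counts without. Levels are given as counts per 1000000 (CPM) scaled by edgeR's trimmed mean of M-values (TMM), and differences as log2 fold changes, with lipids minus without lipids. Of 8 macrophage markers, all were among the tested genes, and their summed level was 29371 to 29762 CPM with lipids and 29577 to 34645 CPM without, most of it from Lyz2. Of the 8, 2 were higher with lipids (Itgam, log2 fold change 0.56, and Fcgr1, 0.29; edgeR adjusted p = 7.72e-05 and 0.00815) and 1 was lower (Cd68, -0.55, adjusted p = 0.000306). Markers of B and plasma cells, the cell type in which this branch is best known, summed to 27.4 to 29.1 CPM with lipids and 48.9 to 56.5 CPM without, and Mzb1 and Pou2af1 were at 0 in all 6 libraries. The 6 fibroblast and stromal markers summed to 114 to 122 CPM with lipids and 119 to 162 CPM without, with 1 of 5 tested lower (Col3a1, -0.50, adjusted p = 0.0140). The part of these sums in the results was not tested. In bulk RNA, fewer cells of a type and less RNA per cell cannot be told apart. The libraries without lipids spread more than those with lipids: the median SD of log2 CPM was 0.0492 with lipids and 0.0709 without over the 38 genes, and 0.0711 and 0.127 over all tested genes. Replicate 1 without lipids had the highest value of the 6 libraries for 14 of the 38 genes (it did so for 20.8% of all tested genes), and values without it are given beside the results that rest on it.

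None of the 38 genes differed between the media at an adjusted p of 0.05 in edgeR's quasi-likelihood test, against a background of 11.5% of 12767 tested genes (4.58% higher and 6.87% lower with lipids). DESeq2 and limma-voom also called 0 of the 38, against backgrounds of 12% and 11.3%. At an unadjusted p under 0.05 there were 5 of 38 (13.2%), against 26.6% of all tested genes: Xbp1, Ssr3 and Serp1 had higher values with lipids, and Srp68 and Dad1 lower values. Groups did not overlap for 6 of 38 genes (15.8%), against 30.5% of all tested genes (14.7% higher and 15.8% lower). These 6 were Xbp1, Ssr3, Serp1 and Rpn2, with every library with lipids above every library without, and Srp68 and Dad1, with every library with lipids below. Log2 fold changes were above 0 for 19 genes and below 0 for 19. Their median was -0.00133, against -0.00321 over all tested genes, and their range was -0.24 (Dad1) to 0.20 (Ssr3). The median size of the log2 fold change, sign left aside, was 0.0381 for the 38 genes and 0.136 over all tested genes. In summed level the genes took 4388, 4479 and 4357 CPM in the 3 libraries with lipids and 4482, 4292 and 4228 CPM in the 3 without, which overlapped.

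**Figure D1:**
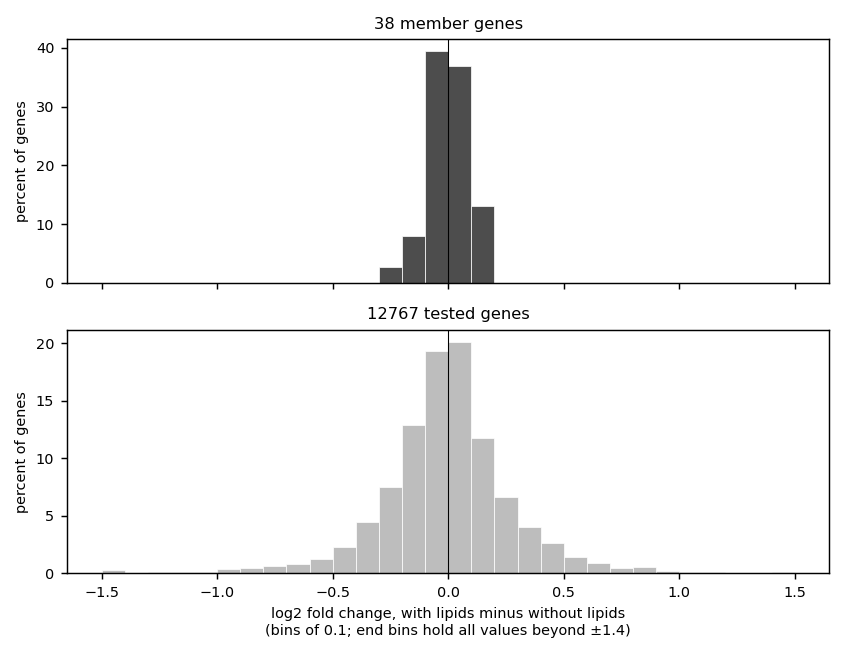
Distribution of log2 fold changes (horizontal axis, with lipids minus without lipids, bins of 0.1) as a percent of genes (vertical axis), for the 38 ER genes above and the 12767 tested genes below. The 38 genes lie between -0.24 and 0.20, and the tested genes reach past 1 in both directions.

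An adjusted p above 0.05 does not show that levels were equal, and the intervals give the size of difference that the libraries leave room for. The 95% interval of the fold change lay within 1.5-fold in both directions for all 38 genes, against 72.9% of all tested genes, and within 1.25-fold for 30 of 38, against 39.9%. Of the 38 genes, 35 had a mean of at least 20 CPM, and over those 35 the bounds spanned -0.40 to 0.36 on the log2 scale, that is at most 1.32-fold. The median level was 96.1 CPM for the 38 genes and 24.5 CPM for all tested genes, and 35 of the 38 lay above that of all tested genes. The intervals were widest for Kdelr3, Sec61g and Srp54a, which were counted at 0.936 to 2.53 CPM.

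**Figure D2:**
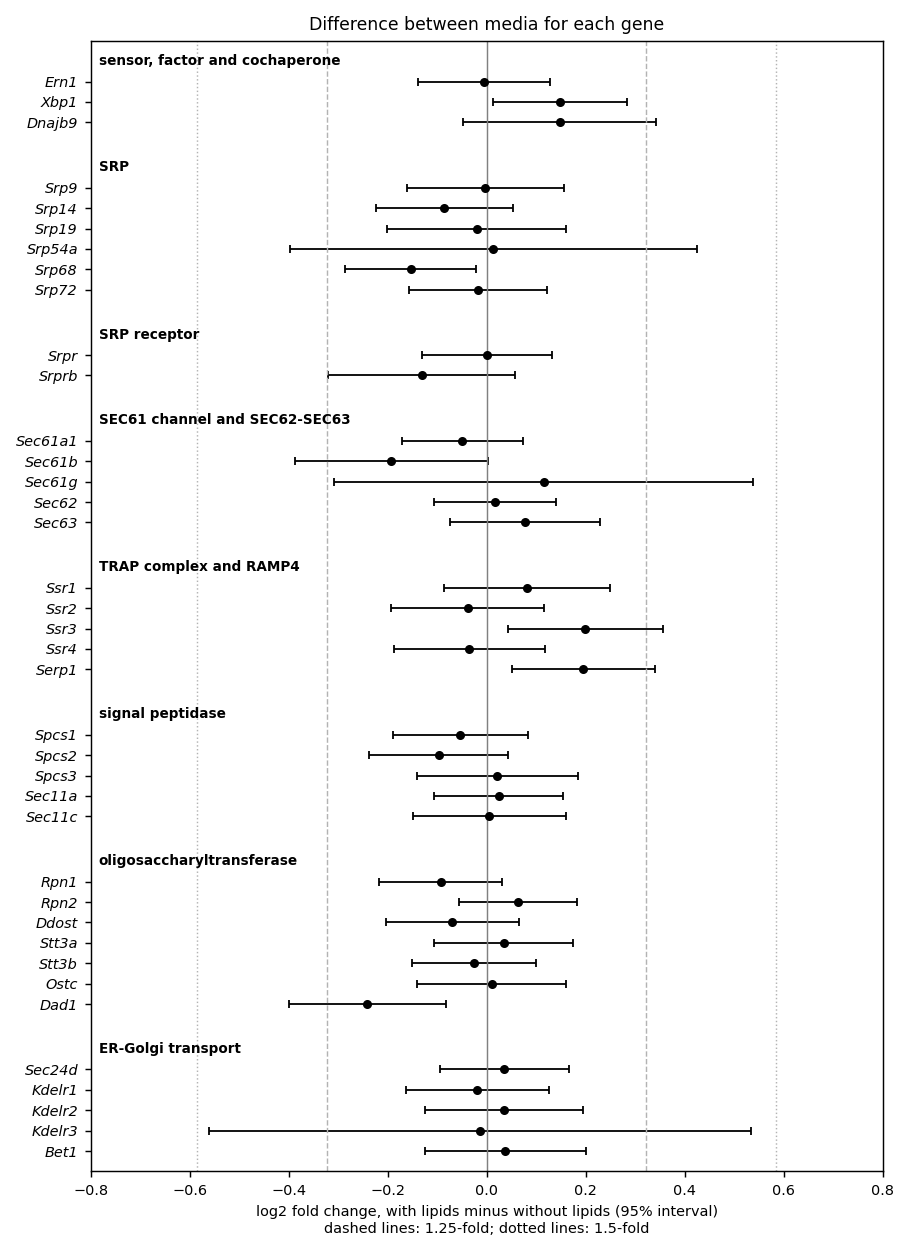
Log2 fold change of each gene, with lipids minus without lipids (point) and its 95% interval from edgeR's quasi-likelihood fit (bar), grouped by role; dashed lines mark 1.25-fold and dotted lines 1.5-fold. Every interval lies within the dotted lines, and 5 of 38 do not reach 0 (Xbp1, Ssr3 and Serp1 to its right, Srp68 and Dad1 to its left).

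Values of the sensor lay together in the 2 media. Ern1 (chr11:106394650-106487852), which encodes IRE1 alpha, had 78.1, 80.9 and 82.3 CPM with lipids and 83.2, 77.2 and 81.9 CPM without. The groups overlapped, with means of 80.5 ± 2.13 and 80.8 ± 3.13 CPM (SD, n = 3 each) with and without lipids. Its log2 fold change was -0.00562 (95% interval -0.14 to 0.13, edgeR adjusted p = 0.967). Xbp1 (chr11:5520659-5525893), the transcription factor whose mRNA IRE1 splices, had 198, 209 and 202 CPM with lipids and 181, 174 and 195 CPM without. All 3 values with lipids were above all 3 without, and the nearest pair, 198 and 195 CPM, was close. The log2 fold change of total Xbp1 was 0.15 ± 0.06 (SE; 95% interval 0.01 to 0.28), with an unadjusted p of 0.0347 and an edgeR adjusted p of 0.151. With scaling by library totals alone it was 0.22 (adjusted p = 0.0368), with all tested genes at a median of 0.0736. A correction for GC content and length gave 0.18 (adjusted p = 0.0447). The adjusted p was 0.185 in DESeq2, 0.201 with a replicate block and 0.204 with no filter on low counts. With 1 library left out, the log2 fold change of Xbp1 was 0.11 to 0.20 (adjusted p = 0.0616 to 0.441). Dnajb9 (chr12:44205559-44210326), an ER cochaperone also called ERdj4 and one of the most direct targets of spliced XBP1, had 42.5, 48.3 and 46.5 CPM with lipids and 46.3, 37.6 and 40.2 CPM without. Replicate 1 without lipids lay within the range of the libraries with lipids, and the other two without lipids lay below it. The log2 fold change was 0.15 ± 0.09 (SE; 95% interval -0.05 to 0.34, edgeR adjusted p = 0.322). With that replicate left out it was 0.24 (adjusted p = 0.0214), and with replicate 2 without lipids left out 0.083 (adjusted p = 0.689). The GC and length correction gave 0.085 (adjusted p = 0.347), and scaling by library totals alone 0.22 (adjusted p = 0.121).

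**Figure D3:**
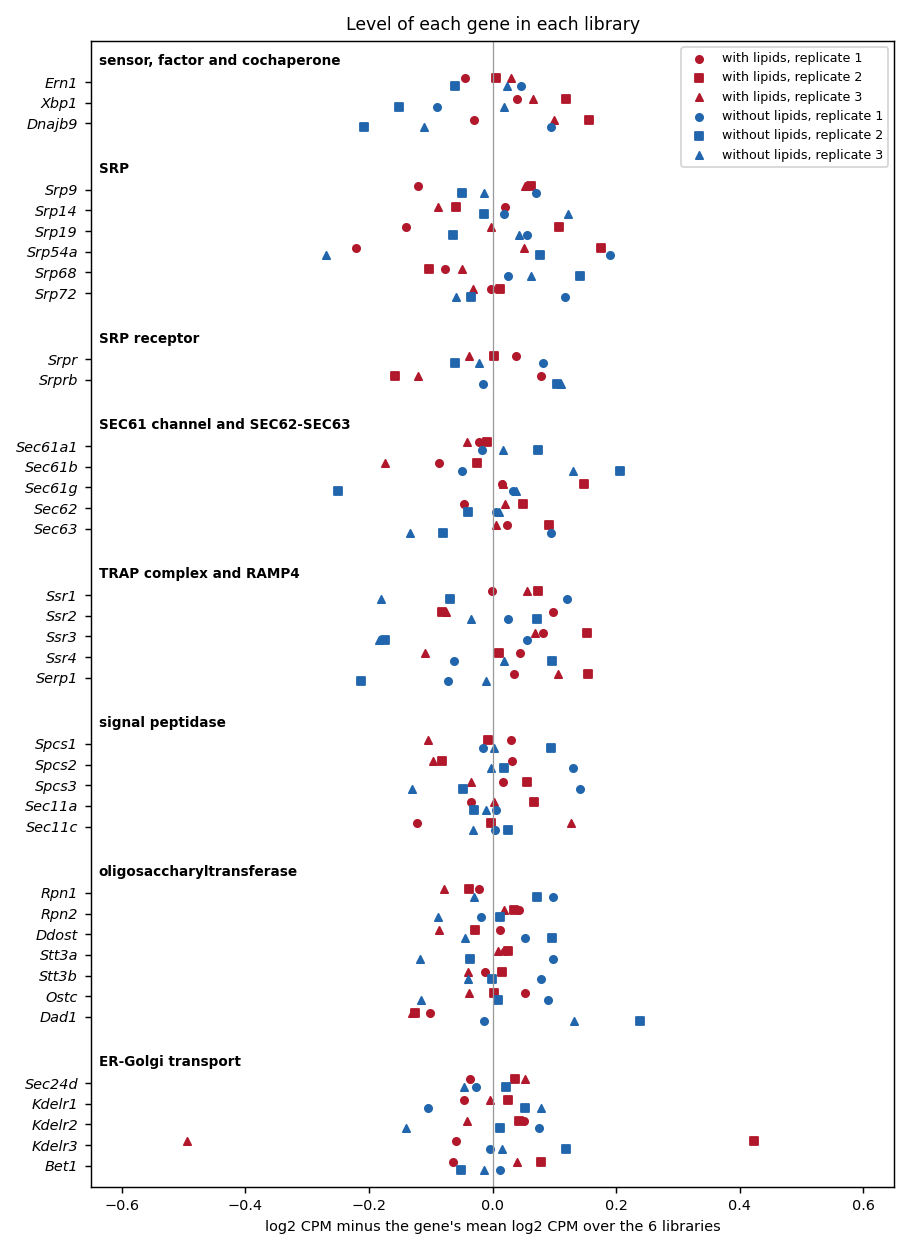
Level of each gene in each of the 6 libraries, as log2 CPM minus the gene's mean log2 CPM over the 6 libraries (horizontal axis), with lipids in red above without lipids in blue and a marker shape for each replicate. Red and blue points are apart only for Xbp1, Srp68, Ssr3, Serp1, Rpn2 and Dad1.

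The signal recognition particle (SRP) binds the signal sequence of a new protein as it leaves the ribosome. Of its 6 genes 5 had log2 fold changes below 0, with a median of -0.02, and the lowest adjusted p was 0.130. Srp68 (chr11:116245166-116274217), one of a pair of subunits that bind the SRP RNA together, had 70.8, 69.4 and 72.1 CPM with lipids and 75.9, 82.3 and 77.9 CPM without. The groups did not overlap, with means of 70.8 ± 1.31 CPM with lipids, against 78.7 ± 3.26 CPM without (± SD, n = 3 each). For Srp68 the log2 fold change was -0.15 ± 0.06 (SE; 95% interval -0.29 to -0.02, unadjusted p = 0.027, edgeR adjusted p = 0.130). With replicate 1 without lipids left out it was -0.17 (adjusted p = 0.0302). The GC and length correction gave -0.090 (adjusted p = 0.235), and scaling by library totals alone -0.077 (adjusted p = 0.416). Its partner Srp72 had a log2 fold change of -0.02 (adjusted p = 0.892), with overlapping groups. Srp54a, a gene for the subunit that holds the signal sequence, had 1.90, 2.50 and 2.29 CPM with lipids and 2.53, 2.34 and 1.84 CPM without, with a log2 fold change of 0.01 (95% interval -0.40 to 0.42, adjusted p = 0.974). Of the 50-base stretches of its transcripts, 70.5% also occur in another gene, most often Srp54c, so reads of these copies cannot be told apart with certainty. Srp54c, counted separately, had 49.2, 48.0 and 44.9 CPM with lipids and 51.7, 47.7 and 44.2 CPM without (log2 fold change -0.01, adjusted p = 0.939). Neither copy thus differed between the media by more than its libraries spread. For Srp9 and Srp14, which pair to slow elongation, the log2 fold changes were -0.00284 and -0.09 (adjusted p = 0.986 and 0.422), and for Srp19, an assembly factor of the particle, -0.02 (adjusted p = 0.902). A share of 17.4% of the 50-base stretches of Srp9 also occurs elsewhere, most often in a processed pseudogene.

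The SRP receptor brings the ribosome to the ER membrane. Srpr, its alpha subunit, had 157, 153 and 149 CPM with lipids and 162, 147 and 151 CPM without. Means were equal at 153 ± 4.04 and 153 ± 7.90 CPM (SD, n = 3 each) with and without lipids, and the 95% interval of the log2 fold change was -0.13 to 0.13 (edgeR adjusted p = 0.999). Srprb, the membrane-spanning beta subunit, had 29.8, 25.3 and 25.9 CPM with lipids and 27.9, 30.3 and 30.4 CPM without. Replicate 1 with lipids and replicate 1 without lipids made the groups overlap, and the log2 fold change was -0.13 (95% interval -0.32 to 0.06, adjusted p = 0.365).

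SEC61 is the channel itself, and SEC62 and SEC63 help proteins through it after translation. The 5 genes had a median log2 fold change of 0.02, with 3 above and 2 below 0. Sec61b, a small subunit of the channel, had 23.2, 24.2 and 21.9 CPM with lipids and 23.8, 28.4 and 27.0 CPM without. Only replicate 1 without lipids reached into the range of the libraries with lipids. The log2 fold change was -0.19 ± 0.09 (SE; 95% interval -0.39 to 0.00, unadjusted p = 0.052, edgeR adjusted p = 0.192). With that replicate left out it was -0.25 (adjusted p = 0.0209), with the GC and length correction -0.063 (adjusted p = 0.580), and with scaling by library totals alone -0.12 (adjusted p = 0.397). The other small subunit, Sec61g, had 1.403, 1.539 and 1.405 CPM with lipids and 1.42, 1.17 and 1.42 CPM without, for a log2 fold change of 0.11 (95% interval -0.31 to 0.54, adjusted p = 0.770). It was counted at a far lower level than Sec61b, and 14.8% of its 50-base stretches, like 17.4% of those of Sec61b, occur in another gene as well. Sec61a1, the pore-forming subunit, had a log2 fold change of -0.05 (adjusted p = 0.625), Sec62 one of 0.02 (adjusted p = 0.890) and Sec63 one of 0.08 (adjusted p = 0.519). For Sec63 the value was 0.15 (adjusted p = 0.0493) with replicate 1 without lipids left out. It was 0.035 (adjusted p = 0.812) when replicate 3 without lipids was left out, and -0.00306 (adjusted p = 0.977) with the GC and length correction.

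The translocon-associated protein (TRAP) complex, encoded by Ssr1 to Ssr4, and RAMP4, encoded by Serp1, sit beside the channel. Their 5 genes summed to 987, 1032 and 991 CPM with lipids and 968, 872 and 884 CPM without, with no overlap, and 2 of the 5 accounted for most of that gap. The sums of Ern1, Xbp1 and Dnajb9 did not overlap either (319, 339 and 331 CPM with lipids, 311, 289 and 317 CPM without). Most of that gap came from Xbp1, with means of 203 CPM with lipids and 183 CPM without, and the groups of Ern1 and Dnajb9 overlapped. Sums of the SRP genes were apart in the other direction (388, 396 and 389 CPM with lipids, 417, 399 and 405 CPM without). Sums of the other roles overlapped. Of all tested genes taken singly, 30.5% did not overlap, and no such share was computed for sums of several genes. Ssr3 (chr3:65379655-65392623), the gamma subunit of TRAP, had 399, 419 and 395 CPM with lipids and 391, 334 and 332 CPM without. Replicate 1 without lipids lay just under the libraries with lipids and far above the other two of its own group. Means were 404 ± 12.8 CPM with lipids, against 352 ± 33.9 CPM without (± SD, n = 3 each). This gave Ssr3 a log2 fold change of 0.20 ± 0.07 (SE; 95% interval 0.04 to 0.36, unadjusted p = 0.0175, edgeR adjusted p = 0.1003). Without that replicate it was 0.29 (adjusted p = 0.000749). With replicate 2 or 3 without lipids left out instead it was 0.16 (adjusted p = 0.322 and 0.205). Leaving out any 1 library with lipids gave adjusted p-values of 0.205 to 0.332. Serp1 (chr3:58519817-58525892), which stabilises membrane proteins at the channel under stress, had 278, 302 and 292 CPM with lipids and 258, 234 and 269.5 CPM without. The groups were apart, with means of 291 ± 12.2 CPM with lipids, against 254 ± 18 CPM without (± SD, n = 3 each). Its log2 fold change was 0.19 ± 0.07 (SE; 95% interval 0.05 to 0.34, unadjusted p = 0.013, edgeR adjusted p = 0.0834). It was 0.21 (adjusted p = 0.0258) when replicate 1 without lipids was left out and 0.24 (adjusted p = 0.0407) when replicate 3 was. When replicate 2 without lipids was left out it was 0.14 (adjusted p = 0.282). Leaving out any 1 library with lipids gave adjusted p-values of 0.127 to 0.315. The exons of Serp1 overlap those of Eif2a on the opposite strand over 72 bases, and whether the counting used strand is not known here.

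The groups overlapped for the other TRAP subunits. Ssr2 had 65.2, 57.5 and 57.8 CPM with lipids and 61.9, 64.0 and 59.4 CPM without, and the groups overlapped. Its log2 fold change was -0.04 (95% interval -0.19 to 0.12, edgeR adjusted p = 0.771), and that of Ssr4 was -0.04 (adjusted p = 0.790). Ssr1 had 0.08 (adjusted p = 0.541), and 0.17 (adjusted p = 0.0298) with replicate 1 without lipids left out. With replicate 3 without lipids left out instead it was 0.018 (adjusted p = 0.909), and with the GC and length correction 0.014 (adjusted p = 0.892). Differences between subunits were not tested. With scaling by library totals alone, Ssr3 had 0.28 (adjusted p = 0.0293) and Serp1 0.27 (adjusted p = 0.0228), with all tested genes at a median of 0.0736. With no filter on low counts, Ssr3 kept 0.20 at an adjusted p of 0.0267 and Serp1 had 0.20 at an adjusted p of 0.0400. The GC and length correction gave smaller values, 0.115 for Ssr3 (adjusted p = 0.102) and 0.109 for Serp1 (adjusted p = 0.227).

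Signal peptidase cuts the signal sequence off on the inner side of the membrane. Its 5 genes had log2 fold changes of -0.10 to 0.02 and no adjusted p below 0.365. Sec11a, one of the alternative catalytic subunits, had 70.7, 75.9 and 72.6 CPM with lipids and 72.7, 71.0 and 71.9 CPM without, and the libraries without lipids all lay within the range of those with lipids. Its log2 fold change was 0.02 (95% interval -0.11 to 0.15, edgeR adjusted p = 0.834). The other catalytic subunit, Sec11c, had 0.00485 (adjusted p = 0.975). Spcs2, an accessory subunit, had 125, 116 and 115 CPM with lipids and 134, 124 and 122 CPM without, and replicate 1 with lipids overlapped with the group without lipids. Its log2 fold change was -0.10 (95% interval -0.24 to 0.04, adjusted p = 0.365). Spcs1 had -0.05 (adjusted p = 0.632) and Spcs3 0.02 (adjusted p = 0.890). Spcs1 overlaps Glt8d1 on the opposite strand over 252 exon bases.

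Oligosaccharyltransferase (OST) attaches N-glycans to proteins that enter the ER, and its 7 genes summed to 1273, 1265 and 1237 CPM with lipids and 1323, 1301 and 1218 CPM without. Dad1 (chr14:54235479-54254104), a small subunit that holds the complex together and was first known from apoptosis after its loss, came nearest to the threshold of all 38 genes. It had 63.7, 62.6 and 62.4 CPM with lipids and 67.6, 80.6 and 74.9 CPM without. The libraries with lipids were nearly the same as each other, and all 3 were below those without lipids, which ranged widely. Means were 62.9 ± 0.694 CPM with lipids, against 74.4 ± 6.51 CPM without (± SD, n = 3 each). The log2 fold change was -0.24 ± 0.07 (SE; 95% interval -0.40 to -0.08, unadjusted p = 0.00656, edgeR adjusted p = 0.0547). It passed the threshold at -0.24 (adjusted p = 0.0342) with no filter on low counts, at -0.29 (adjusted p = 0.0318) with the correction for GC content and length, and at -0.30 (adjusted p = 0.00140) with replicate 1 without lipids left out. It was -0.16 (adjusted p = 0.144) with scaling by library totals alone and -0.18 (adjusted p = 0.201) with replicate 2 without lipids left out. Rpn2, also called ribophorin 2, had 265, 263 and 261 CPM with lipids and 254, 259 and 242 CPM without. The groups did not overlap, but the difference was small: the log2 fold change was 0.06 (95% interval -0.06 to 0.18, adjusted p = 0.506). The other shared subunits, Rpn1 and Ddost, had -0.09 (adjusted p = 0.327) and -0.07 (adjusted p = 0.510). The catalytic subunits Stt3a and Stt3b had 0.03 (adjusted p = 0.779) and -0.03 (adjusted p = 0.814), and Ostc, which links the STT3A complex to the channel, 0.01 (adjusted p = 0.948).

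In transport between ER and Golgi the groups overlapped for all 5 genes, whose summed level was 253, 265 and 259 CPM with lipids and 253, 262 and 255 CPM without. Bet1, a SNARE of vesicles that leave the ER, had 27.9, 30.8 and 30.0 CPM with lipids and 29.4, 28.2 and 28.9 CPM without. All 3 libraries without lipids lay within the range of those with lipids, and the log2 fold change was 0.04 (95% interval -0.12 to 0.20, edgeR adjusted p = 0.792). Kdelr1, a receptor that returns escaped ER proteins from the Golgi, had 91.7, 96.4 and 94.5 CPM with lipids and 88.2, 98.2 and 100.0 CPM without. Here the libraries with lipids lay within the range of those without, and the log2 fold change was -0.02 (95% interval -0.16 to 0.12, adjusted p = 0.882). Kdelr2 had 0.03 (adjusted p = 0.808), and Sec24d, a cargo-binding coat protein of these vesicles, 0.03 (adjusted p = 0.752). Kdelr3 was counted at 1.27, 1.77 and 0.936 CPM with lipids and 1.32, 1.43 and 1.33 CPM without, with an interval of -0.56 to 0.53 (adjusted p = 0.980). Sec24d and Kdelr3 are the 2 genes shown above with TGACGTGG in the promoter. Genes with CCACG in the promoter had a median log2 fold change of -0.00133 (20 genes, 10 above 0, range -0.24 to 0.20), and genes with a promoter in the table but no CCACG had -0.00205 (10 genes, 5 above 0, range -0.19 to 0.15).

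The share of each paralogue within its family was also compared between the media. Kdelr1 made up 62.5 ± 1.16% of the summed counts of the 3 KDEL receptor genes with lipids and 63.3 ± 3.16% without (SD, n = 3 each), a difference of -0.785 percentage points (exact two-sided permutation test, p = 0.8). Sec11a made up 42.2 ± 1.98% of the Sec11a and Sec11c counts with lipids and 41.8 ± 0.665% without, a difference of 0.381 (exact permutation p = 0.8). Stt3a made up 60.6 ± 0.330% of the Stt3a and Stt3b counts with lipids and 59.5 ± 0.807% without, a difference of 1.03 (exact permutation p = 0.2). Adjusted over these 3 families the p-values were 0.8, 0.8 and 0.6, and with 3 libraries against 3 the smallest p such a test can give is 0.1.

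Among themselves the genes differed far more than they did between media. Per kilobase of annotated exon, the lowest mean level over both media was 0.419 CPM (Srp54a) and the highest 90.7 CPM (Ssr3), a ratio of 216. Of the 50-base stretches of Srp54a, 70.5% also occur in another gene, so its level and this ratio are uncertain. Among the 35 genes of at least 20 CPM the lowest was 6.59 CPM per kilobase (Srprb), a ratio of 13.8 to the highest. Srprb shares 888 exon bases with Gm20425 on the same strand, and 19.9% of its 50-base stretches occur in another gene. The part of this overlap in its level was not tested. After Ssr3, with 96.9 ± 3.06 CPM per kilobase with lipids and 84.5 ± 8.13 without (SD, n = 3 each), came Srp14 with 79.1 ± 3.07 and 83.9 ± 4.16 and Spcs1 with 78.9 ± 3.76 and 81.9 ± 3.42. These 3 overlapped without lipids, while with lipids Ssr3 lay above the other two. Next in the order of levels with lipids were Ddost (68.1 ± 2.32 with lipids and 71.5 ± 3.52 without), Serp1 (63.0 ± 2.64 and 55.1 ± 3.90) and Xbp1 (62.6 ± 1.74 and 56.5 ± 3.37). Ern1, at 9.84 ± 0.260 with lipids and 9.88 ± 0.384 without, was among the low ones. Srp9, the partner of Srp14, had 9.66 ± 0.672 CPM per kilobase with lipids and 9.68 ± 0.418 without. Much of the gap between these partners comes from the annotated exon length by which counts are divided, 5541 bases for Srp9 and 1195 for Srp14: before that division Srp9 had 53.5 CPM with lipids and 53.6 CPM without, and Srp14 had 94.5 CPM with lipids and 100.3 CPM without. Over the 38 genes the order of levels with and without lipids was nearly the same (Spearman rho = 0.994 across genes, which share libraries and are not independent replicates).

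**Figure D4:**
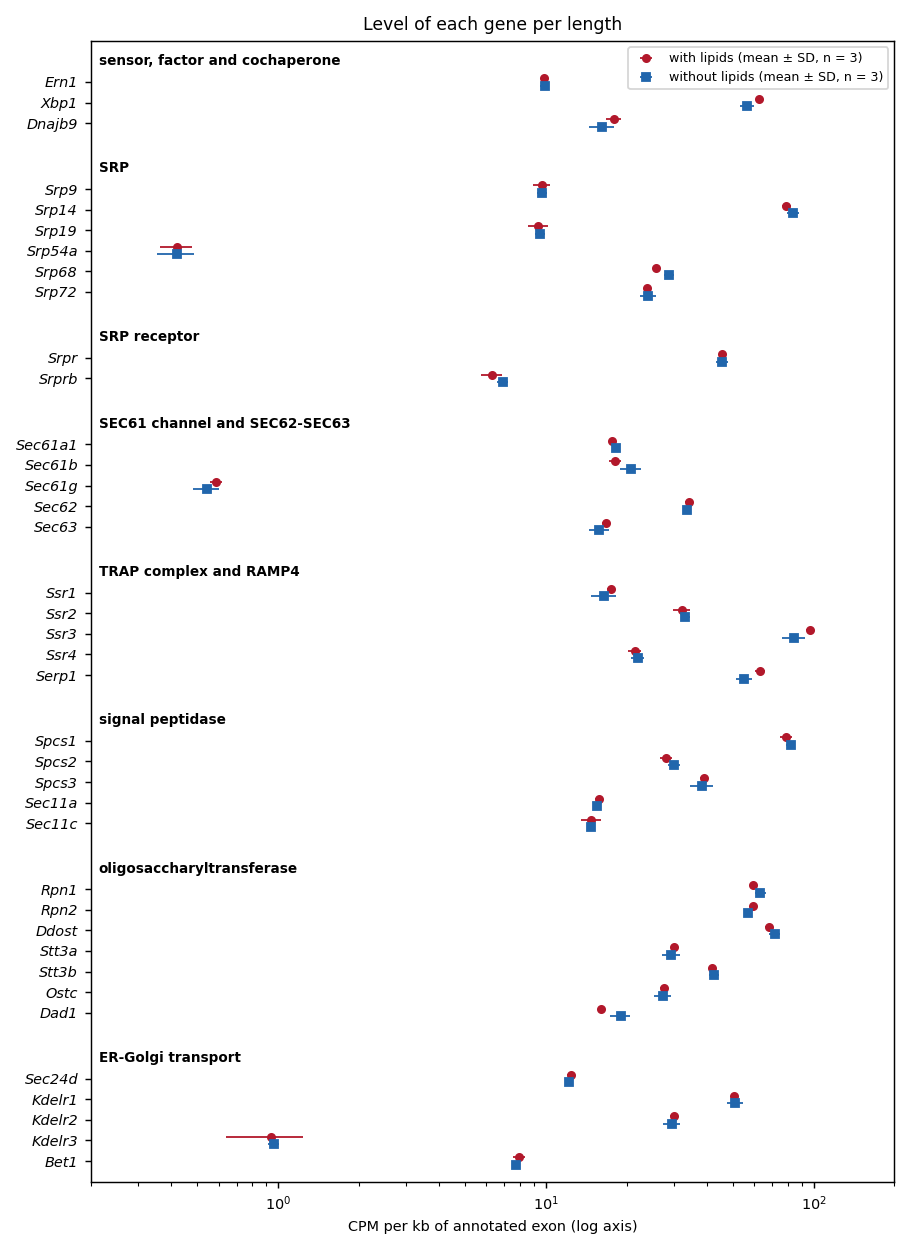
Level of each gene per kilobase of annotated exon, in CPM on a log axis, as the mean of 3 libraries with its SD, with lipids in red above without lipids in blue. Srp54a, Sec61g and Kdelr3 lie below 1, and the other 35 genes lie at 6.3 to 96.9.

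Other genes of the same pathways, none of them among the 38, were counted from fixed lists in the same fit. Of 12 tested partners and regulators of IRE1, 1 rose and 0 fell, with a median of -0.03. That gene was Map3k5, which encodes ASK1, the kinase that IRE1 and TRAF2 activate on the way to JNK. It had 42.1, 44.4 and 43.3 CPM with lipids and 34.0, 32 and 32.4 CPM without, well apart. Its log2 fold change was 0.40, with an SE of 0.07 and an edgeR adjusted p of 0.00333, and it passed the threshold in each of the 14 other analyses. Of 6 reported substrates of IRE1-dependent mRNA decay, 0 rose and 1 fell, with a median of -0.26. The gene that fell was Tapbp, the tapasin of peptide loading onto MHC class I, with 212, 207 and 207 CPM with lipids and 229, 285 and 269 CPM without (log2 fold change -0.32 ± 0.08, adjusted p = 0.0213). With scaling by library totals alone its adjusted p was 0.0513, and leaving out any 1 library with lipids or replicate 2 without lipids gave 0.0809 to 0.09997. Tapbp shares 149 exon bases with Zbtb22 on the same strand. Hgsnat, at 211 CPM with lipids and 182 CPM without, had 0.21 (adjusted p = 0.0647), with no overlap. Col6a1 had -0.42 (adjusted p = 0.0894) and Pdgfrb -0.21 (adjusted p = 0.401). Both are also expressed by stromal cells, whose markers Col3a1 and Col1a1 had -0.50 and -0.37 (adjusted p = 0.0140 and 0.118), and the part of such cells in these values was not tested. Bloc1s1, the substrate most used as a marker of that decay, had a log2 fold change of -0.10 (adjusted p = 0.845) at 1.42 CPM with lipids and 1.51 CPM without.

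Of 21 ERAD and folding genes reported as XBP1 targets, 1 rose and 2 fell, with a median of -0.01. Pdia4, an ER disulfide isomerase, had 133, 130.4 and 132 CPM with lipids and 119, 105 and 114 CPM without (log2 fold change 0.22, edgeR adjusted p = 0.0438). Leaving out any 1 library with lipids, or replicate 2 or 3 without lipids, gave adjusted p-values of 0.0581 to 0.167. Edem2 and Edem1, which help to pick misfolded glycoproteins for degradation, fell. Edem2 had 46.5, 46.3 and 47.0 CPM with lipids and 55.0, 60.4 and 61.4 CPM without (log2 fold change -0.34, adjusted p = 0.00762, and 0.0559 without replicate 2 of the group with lipids). Edem1 had 385, 379.6 and 376 CPM with lipids and 466, 429 and 426 CPM without (log2 fold change -0.21, adjusted p = 0.0332). Its adjusted p was 0.139 with scaling by library totals alone and 0.0743 to 0.160 when any 1 library with lipids or replicate 2 without lipids was left out. Hspa5, the chaperone BiP that rises in most forms of ER stress, had a log2 fold change of 0.05 (adjusted p = 0.631).

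Of 29 other tested factors of membrane insertion and translocation, 0 rose and 2 fell, with a median of -0.09. These were Asna1, an ATPase that carries tail-anchored proteins to the ER membrane, and Wrb, a subunit of its receptor there. Camlg, the other subunit of that receptor, had a log2 fold change of 0.085 (adjusted p = 0.588). Sgta, Bag6, Ubl4a and Get4, which act before Asna1, had -0.29, -0.19, -0.14 and -0.045 (adjusted p = 0.128, 0.209, 0.264 and 0.775). Asna1 had 85.2, 77.8 and 76.0 CPM with lipids and 100.4, 106 and 97.0 CPM without (log2 fold change -0.34 ± 0.07, edgeR adjusted p = 0.00737). With replicate 2 or 3 of the libraries with lipids left out, the adjusted p was 0.0572 and 0.0524. Wrb had 20.6, 21.7 and 21.1 CPM with lipids and 28.2, 26.5 and 23.7 CPM without (log2 fold change -0.30 ± 0.09, adjusted p = 0.0442). Its adjusted p was 0.103 with scaling by library totals alone and 0.136 to 0.155 when any 1 library with lipids or replicate 2 without lipids was left out. An annotated antisense RNA overlaps Wrb over 505 exon bases. Of 26 other genes of OST and of N-glycan assembly and trimming, 0 rose and 0 fell, with a median of -0.02. Of 40 other genes of ER-Golgi transport, 0 rose and 1 fell, with a median of -0.02. This was Mcfd2, a partner of the cargo receptor LMAN1, with 125, 127 and 122 CPM with lipids and 155, 144 and 146 CPM without (log2 fold change -0.25 ± 0.06, adjusted p = 0.0167). Its adjusted p was 0.0694 with scaling by library totals alone and 0.0726 to 0.101 when any 1 library with lipids was left out. Of all tested genes, 11.5% were called (4.58% higher and 6.87% lower). The share was above that for the substrates of IRE1-dependent decay (16.7%) and the ERAD and folding genes (14.3%). It was below for partners and regulators of IRE1 (8.33%), insertion and translocation factors (6.90%), ER-Golgi genes (2.5%) and OST and N-glycan genes (0%). Each of these shares rests on few genes.

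The share of the 38 genes past the threshold was below that of all tested genes in each of the 15 analyses plotted here. It was 0% in 10 of them, against 4.96% to 12.9% of all tested genes. Scaling by library totals alone called 3 (Xbp1, Ssr3 and Serp1, all higher) of 38, or 7.89%, against a background of 14.4% (9.72% higher and 4.67% lower, where TMM scaling gave more lower than higher). No filter on low counts called 3 (Ssr3 and Serp1 higher, Dad1 lower), against 9.82%, and the correction for GC content and length called 2 (Xbp1 higher, Dad1 lower), or 5.26%, against 15.8%. Leaving out replicate 1 without lipids called 8 of 38, or 21.1%, against 27.2% of all tested genes: Dnajb9, Sec63, Ssr1, Ssr3 and Serp1 were higher with lipids, and Srp68, Sec61b and Dad1 lower. Leaving out replicate 3 without lipids called Serp1 alone, against 11.7%.

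**Figure D5:**
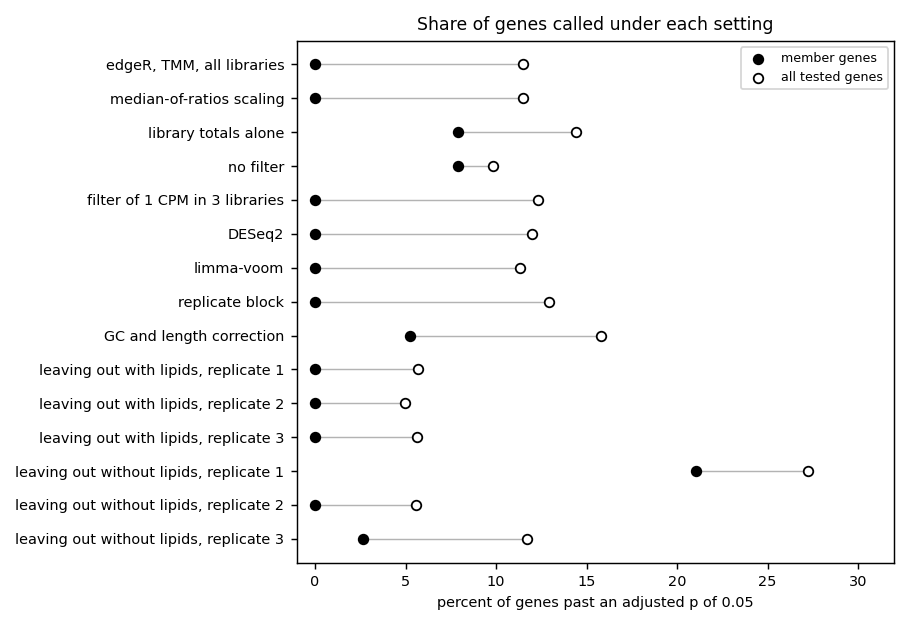
Percent of genes past an adjusted p of 0.05 (horizontal axis) in each of 15 analyses (vertical axis), for the 38 ER genes (filled points) and for all tested genes (open points). The filled point lies left of the open one in every analysis, and is highest, at 21.1%, when replicate 1 without lipids is left out.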

How the data were processed

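Poly(A) RNA of 6 macrophage samples was sequenced, with 3 libraries per medium, and groups were taken from the sample titles. For each library the authors deposited the raw counts of 46603 Ensembl genes, and the tables held 0 rows for unassigned reads. The build GRCm38.p4 and the tools HTSeq, DESeq2 and TopHat2 2.1.0 are named in the submitters' processing notes, and the kit was stranded per the labels' protocols. Neither the annotation release nor the strand setting is given in the sources used here: overlapping genes on opposite strands may share reads. GENCODE M21 gave symbols and exon lengths for 46091 identifiers, and 512 did not match (0.129% to 0.142% of counts).

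The tests used edgeR 4.0.16 (R 4.3.3) on these counts: filterByExpr (minimum count 10, minimum total 15), TMM scaling, and a two-sided quasi-likelihood F test of with against without lipids over 12767 genes, with Benjamini-Hochberg adjustment and a threshold of 0.05. The SE of a gene was derived from the same fit, as the size of its log2 fold change divided by the square root of its F statistic. The 95% intervals were built from that SE with a t distribution and are approximate. A count of 0 would allow up to 3 counts, or 0.118 to 0.154 CPM, for counting error only. Replicates differed by more than sampling noise. The labels do not say whether replicates are separate mice or cultures, and the p-values then speak only of the spread among these 6 libraries, which may be technical. The alternatives were DESeq2 1.42.0, limma-voom (limma 3.58.1), median-of-ratios scaling, scaling by library totals alone, a filter of 1 CPM in 3 libraries or none, a replicate block, a loess correction for GC content and exon length (12720 genes), each library left out in turn, and a threshold of 0.01. The script was tested on simulated data.

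The 38 genes and the other lists were chosen with earlier results of these data known. Values in every library were given for Ern1, Xbp1 and Dnajb9 and for any of the 38 past the threshold. The same was done for the highest and lowest log2 fold change of each role. From each other list it was done for up to 3 genes past the threshold. Serp1, Srp54c and Kdelr3 were added after their values were seen. So were, without values per library, Hspa5, Bloc1s1, Hgsnat, Col6a1, Pdgfrb, Camlg, Sgta, Bag6, Ubl4a and Get4. Shared sequence was counted as 50-base stretches of GENCODE transcripts. Proteins were not analysed here.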

Additional observations from a re-analysis of the deposited data

How the results depend on the processing

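With 3 libraries per group the median SE of the 38 log2 fold changes was 0.067. Calls among the 38 genes changed under 5 alternatives. Scaling by library totals alone called 3 higher and 0 lower, no filter 2 higher and 1 lower, and the correction for GC content and length 1 higher and 1 lower; with 1 library left out, 0 to 5 were higher and 0 to 3 lower, and the median log2 fold change was -0.0165 to 0.0309. Over all tested genes, 585 higher and 877 lower became 1241 higher and 596 lower with library totals alone, so that the balance turned round, 1009 higher and 1243 lower with no filter, 216 higher and 444 lower at a threshold of 0.01, and 219 to 1566 higher and 423 to 1975 lower with 1 library left out. The causes were not tested, except that a stricter threshold calls fewer genes by construction.

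The replicate block called 0 of the 38 genes and 12.9% of all tested genes. Same-numbered libraries deviated together with correlations of -0.0354, -0.137 and 0.203, and differently numbered ones with -0.152 to 0.205. Not every library correlated best with its own number. With 3 libraries per group, these values cannot settle whether the numbers pair the libraries. Under the block the adjusted p of Pdia4 was 0.0505 and that of Wrb 0.0577.

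In the other lists, counts moved as follows. Partners and regulators of IRE1 had 1 lower with no filter, and 1 to 2 higher and 0 to 4 lower with 1 library left out. Substrates of IRE1-dependent decay had 1 higher with library totals alone, no filter, DESeq2 or the GC and length correction, 0 lower with library totals alone or a threshold of 0.01, 2 lower with no filter, DESeq2 or the block, and 0 to 1 higher and 0 to 2 lower with 1 library left out. ERAD and folding genes had 0 higher with the block or a threshold of 0.01, 1 lower with library totals alone or a threshold of 0.01, and 0 to 2 higher and 0 to 3 lower with 1 library left out. Insertion and translocation factors had 1 lower with library totals alone, the block or a threshold of 0.01, 5 lower with no filter, and 0 to 1 higher and 0 to 9 lower with 1 library left out. OST and N-glycan genes had 2 lower with no filter, 1 lower with the GC and length correction, and 0 to 2 higher and 0 to 4 lower with 1 library left out. ER-Golgi genes had 0 lower with library totals alone or a threshold of 0.01, 3 with no filter, 2 with the block, 4 with the GC and length correction, and 0 to 1 higher and 0 to 6 lower with 1 library left out. With 1 library left out, the difference in paralogue share was -2.42 to 0.737 percentage points for Kdelr1, -0.264 to 1.52 for Sec11a and 0.647 to 1.45 for Stt3a.

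Of the 38 log2 fold changes, 23 changed sign under some alternative, all of them under 0.08 in size at first and none called after. With library totals alone they became 0.071 for Ern1, 0.074 for Srp9, 0.056 for Srp19, 0.059 for Srp72, 0.028 for Sec61a1, 0.038 for Ssr2, 0.042 for Ssr4, 0.023 for Spcs1, 0.00745 for Ddost, 0.051 for Stt3b, 0.058 for Kdelr1 and 0.063 for Kdelr3. Median-of-ratios scaling gave 5.09e-05 for Ern1 and 0.00283 for Srp9, DESeq2 gave 1.71e-05 for Ern1 and 0.00288 for Srp9, and no filter gave 0.00176 for Srp9. The GC and length correction gave -0.073 for Srp54a, -0.00375 for Srpr, -0.064 for Sec62, -0.00306 for Sec63, 0.058 for Ssr2, -0.059 for Spcs3, -0.049 for Sec11a, -0.059 for Sec11c, 0.022 for Ddost, -0.068 for Stt3a, -0.017 for Ostc, 0.043 for Kdelr1, 0.044 for Kdelr3 and -0.077 for Bet1. With 1 library left out the ranges were -0.038 to 0.020 for Ern1, -0.035 to 0.054 for Srp9, -0.083 to 0.041 for Srp19, -0.11 to 0.12 for Srp54a, -0.048 to 0.044 for Srp72, -0.031 to 0.047 for Srpr, -0.00504 to 0.043 for Sec62, -0.069 to 0.00836 for Ssr4, -0.033 to 0.11 for Spcs3, -0.00368 to 0.048 for Sec11a, -0.060 to 0.064 for Sec11c, -0.011 to 0.099 for Stt3a, -0.049 to 0.013 for Stt3b, -0.040 to 0.064 for Ostc, -0.069 to 0.020 for Kdelr1, -0.022 to 0.087 for Kdelr2 and -0.30 to 0.17 for Kdelr3.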

Other observations

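Across the 38 genes the log2 fold change went down with GC content (Spearman rho = -0.51 over 38 genes, against -0.29 over 12720 tested genes) and up with exon length (rho = 0.29, against 0.14). Genes share libraries and are not independent replicates, so these values describe the 6 libraries. The GC and length correction moved the sign of 14 of the 38 genes.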
